A study of Mus musculus with 4 samples.

Results

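Sensory neuron identity transcription factors were read in ribosome footprint libraries of the mouse dorsal root ganglion (DRG), which houses the cell bodies of the neurons for touch, pain and body position. The set holds 10 of the 48431 genes of the deposited table: Isl1, Pou4f1, Pou4f2, Pou4f3, Runx1, Runx3, Drgx, Tlx3, Prdm12 and Etv1. They were taken by gene symbol. The symbols of 9 were in the table, and Drgx was found under Prrxl1, of which the RefSeq gene table lists Drgx as a synonym. The 4 libraries form 1 group and came, per the labels, from ganglia of wild-type male mice of the SW strain that received methylglyoxal (MGO), a reactive by-product of glycolysis, by i.p. injection at 2 mg/kg for 6 days. The protocol text of the same samples speaks of saline instead, so the libraries are named by their treatment label. No control libraries were analysed here, so nothing below measures an effect of methylglyoxal. The labels do not say whether animals were pooled or whether replicates came from separate animals.

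Sensory neurons arise from neural crest cells, and a small set of DNA-binding proteins fixes and then maintains their identity. Isl1 and Pou4f1 act in nearly all of them. Prdm12, Tlx3, Drgx and Runx1 act in the nociceptor and itch lineages, and Runx3 and Etv1 in proprioceptors and other large neurons. Footprint sequencing reads the stretch of mRNA that a ribosome covers, so a gene's value follows the number of ribosomes on its message. In whole ganglia, fewer cells of a type and less RNA per cell cannot be told apart.

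Values are CPM, footprints per 1000000 reads of the library, and are not divided by gene length. Levels of different genes were therefore compared as CPM per kb of coding length, except for detection, minimum levels and rankings that are given in CPM. The libraries held between 2610537 and 3753015 reads, and a count of 0 allowed up to 0.799 to 1.15 CPM (3 reads). Replicates 1 and 2 differed by little more than sampling noise (chi-square per degree of freedom 1.03), as did replicates 3 and 4 (1.05), against 3.34 to 4.10 between libraries of different pairs. The 2 pairs, called the first (replicates 1 and 2) and the second (replicates 3 and 4), were each counted as 1 sample, and each ± is the SD over the pair means (n = 2). The markers of the labelled tissue were present: all 8 sensory neuron markers were detected, with Tubb3, a neuronal tubulin gene, at 1786 ± 27.4 CPM. Of 6 motor neuron markers, Lhx3 and Lhx4 were listed at 0, and Mnx1, Chat and Slc18a3 had means of 0.0717 to 0.233 CPM. Slc5a7 was the 1 that was detected, at 6.53 ± 1.01 CPM.

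Several of the factors belong to gene families whose members share stretches of identical coding sequence. Where such a stretch is long enough, a footprint of 28 to 34 nt may not tell the genes apart. The longest stretches of coding sequence that family members share are shown because they mark where reads could be assigned to either gene. They were read from GENCODE M21 transcripts (GRCm38). Capitals mark the shared bases, with 8 flanking coding bases on either side in lower case. Pou4f1 (chr14:104466054-104466124, minus strand) and Pou4f2 (chr8:78435062-78435132, minus strand) share 71 bases, longer than any selected footprint, in the coding region of the POU-specific domain:
Pou4f1: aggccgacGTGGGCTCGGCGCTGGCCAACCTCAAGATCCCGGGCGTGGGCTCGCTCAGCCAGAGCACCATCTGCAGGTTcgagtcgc
Pou4f2: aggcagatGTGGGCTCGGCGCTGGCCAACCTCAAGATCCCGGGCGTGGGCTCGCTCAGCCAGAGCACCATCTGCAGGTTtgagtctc
Runx1 (chr16:92695530-92695567, minus strand) and Runx3 (chr4:135152973-135153010, plus strand) share 38 bases in the region of the Runt domain:
Runx1: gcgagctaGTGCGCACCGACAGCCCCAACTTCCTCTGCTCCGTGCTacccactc
Runx3: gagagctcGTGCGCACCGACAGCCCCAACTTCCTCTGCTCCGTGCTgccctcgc
Tlx3 (chr11:33202450-33202481, minus strand) and Tlx2 (chr6:83069075-83069106, minus strand) share 32 bases in the homeobox:
Tlx3: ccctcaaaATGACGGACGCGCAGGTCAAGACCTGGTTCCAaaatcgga
Tlx2: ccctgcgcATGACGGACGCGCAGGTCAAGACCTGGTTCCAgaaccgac
In Isl1 (chr13:116303236-116303258, minus strand) and Isl2 (chr9:55544147-55544169, plus strand) the longest shared stretch, also in the homeobox, is 23 bases and shorter than any selected footprint:
Isl1: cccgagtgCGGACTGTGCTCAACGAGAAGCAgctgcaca
Isl2: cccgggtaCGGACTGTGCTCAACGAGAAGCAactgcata

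Shared sequence was a small part of most of the coding sequences. The share of windows of 28 bases that also occur in a transcript of another gene, on either strand, was 0% in Isl1 and Drgx and 0.886% to 6.80% in Pou4f1, Pou4f2, Pou4f3, Runx1, Runx3 and Tlx3. Between Pou4f1 and Pou4f2 it was 67 windows, or 5.42% of those of Pou4f1. In Prdm12 it was 11.3%, nearly all of it (119 windows) an overlap with the antisense gene Gm13425, which stood at 5.45 CPM. Runx1 overlaps the antisense gene Gm26626 (4.98 CPM) in 79 windows. The strand setting of the counting is not given in the sources used here, so reads in these overlaps cannot be told apart. Etv1 is the exception: 89.4% of its windows occur in Gm5454, a processed pseudogene on chromosome 13, which was listed at 0 in all 4 libraries. How reads with several matches were treated is not given in the sources used here, so the level of Etv1 is uncertain.

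**Figure D1:**
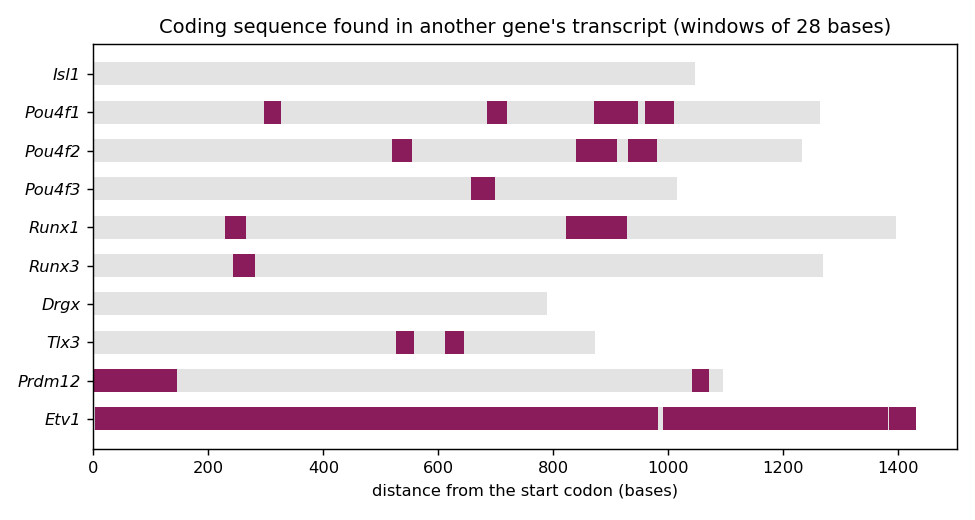
Coding sequences of the 10 factors, drawn to scale in bases from the start codon (horizontal axis), with stretches found in a transcript of another gene in purple. Etv1 is covered almost throughout by its pseudogene copy, whereas Isl1 and Drgx have no such stretch.

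All 10 factors were detected, that is, had a mean of at least 1 CPM, which 63.8% of protein-coding genes and 31.6% of all genes reached. Means of 10 CPM or more were found for 7 of them, against 40% of protein-coding genes. Prdm12 had the highest level, followed by Tlx3, and Runx3 the lowest. Per kb of coding length, 7 factors lay above the median of detected coding genes (11.2 CPM per kb) and Pou4f3, Pou4f2 and Runx3 below it. The count depends on the length used. Per kb of summed exon length, where that median was 3.52, Runx1 and Etv1 lay below it as well. All reads of the factors were whole multiples of the value of 1 read, within a tolerance of 0.02 reads. Their coding sequences are 789 to 1431 bases long, with a median of 1164 against 1425 for detected coding genes. They lie on 9 chromosomes.

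**Figure D2:**
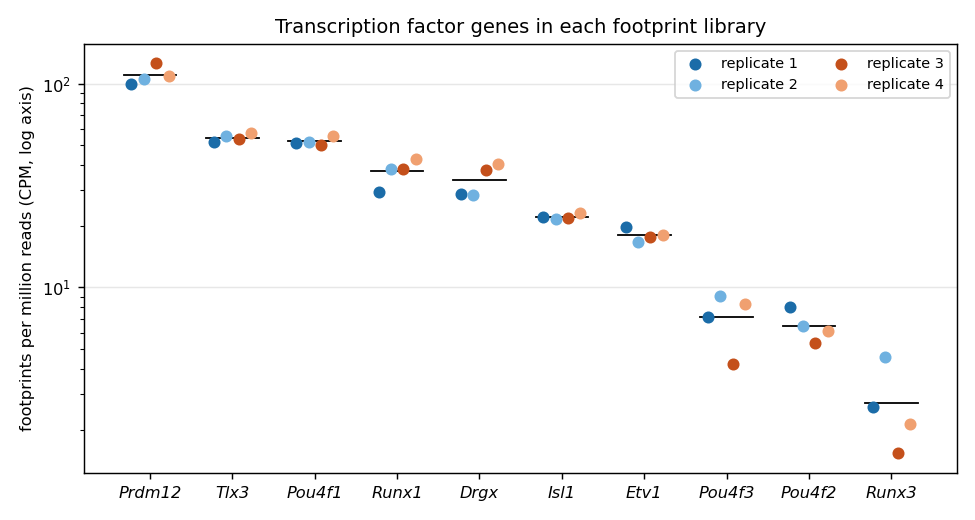
Footprints per 1000000 reads (vertical axis, log scale) of each factor in each library, 1 point per library and a bar at the mean. Prdm12 lies between 99.2 and 126 CPM and Runx3 between 1.53 and 4.56, and the Drgx points of replicates 3 and 4 lie above those of replicates 1 and 2.

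Of the factors shared by nearly all sensory neurons, Pou4f1 stood above Isl1, and Isl1 below its own paralog Isl2. Isl1 (ENSMUSG00000042258, chromosome 13, 116298281 to 116309689, GRCm38) encodes a LIM homeodomain protein needed for sensory neuron differentiation. It gave 22.1, 21.6, 21.8 and 23.2 CPM in replicates 1 to 4, from 278 reads in all. The 4 values were nearly level and the pairs overlapped. Pou4f1 (chromosome 14, 104461676 to 104467999) encodes BRN3A, a POU homeodomain protein that drives the sensory programme and ends that of the precursors. Its values were 51.0, 52.0, 50.2 and 55.4 CPM, again with overlapping pairs. Per kb of coding length, Pou4f1 stood at 41.3 ± 0.714 and Isl1 at 21.2 ± 0.438 CPM per kb, a fold of 1.95 (95% exact interval 1.69 to 2.25, counting error only). The log2 difference, Isl1 minus Pou4f1, was -0.93 ± 0.0049 and had the same sign in all 4 libraries. The intervals and floors given here cover counting error only, since reads of 1 library are not independent samples. They do not cover the choice between coding and exon length.

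Isl2, whose product is also found in sensory neurons, gave 68.2, 73.7, 79.3 and 81.0 CPM. Per kb of coding length Isl2 stood at 70.1 ± 6.04 CPM per kb, 3.30-fold above Isl1 (interval 2.88 to 3.78). The log2 difference, Isl1 minus Isl2, was -1.68 ± 0.0952 and was negative in all 4 libraries. With summed exon length Isl2 lay 6.12-fold above Isl1 (interval 5.35 to 7.03). No window of 28 coding bases was shared between Isl1, Isl2 and any other gene, as the 23-base stretch printed above shows for this pair. Ldb1, which encodes the cofactor that bridges LIM homeodomain proteins, stood at 37.1 ± 1.01 CPM per kb, above Isl1 in 4 of 4 libraries (log2 difference, Isl1 minus Ldb1, -0.78 ± 0.0114).

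The other POU family members were low. Pou4f2, best known from retinal ganglion cells, gave 8.03, 6.45, 5.36 and 6.13 CPM from 82 reads. Pou4f3, best known from the hair cells of the inner ear, gave 7.17, 9.11, 4.21 and 8.26 CPM from 91 reads. Replicate 3 was the lowest library for both genes. Per kb of coding length, Pou4f1 exceeded Pou4f2 (5.27 ± 0.858 CPM per kb) 7.79-fold and Pou4f3 (7.09 ± 1.33) 5.77-fold, with log2 differences of 2.77 ± 0.218 and 2.43 ± 0.297 in 4 of 4 libraries. Pou4f2 and Pou4f3 did not differ beyond their spread: Pou4f3 was higher in 3 of 4 libraries, and the fold of 1.35 had an interval of 0.990 to 1.84. Reads from the 71-base stretch printed above could come from either Pou4f1 or Pou4f2, and their part in the low level of Pou4f2 was not tested.

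Among the nociceptor factors Prdm12 led, followed by Tlx3, Drgx and Runx1. Prdm12 (chromosome 2, 31640037 to 31655795) encodes a PRDM protein without which nociceptors do not form, and its mutation in humans causes congenital insensitivity to pain. It gave 99.2, 106, 126 and 109.5 CPM from 1363 reads. Replicate 3 was the highest, and both libraries of the second pair lay above both of the first. At 100.4 ± 9.82 CPM per kb of coding length, Prdm12 exceeded 92.5% of detected coding genes. Tlx3 (chromosome 11, 33200752 to 33203589), a homeobox gene that acts with Runx1 in the same neurons, gave 51.6, 55.1, 53.6 and 57.0 CPM, with overlapping pairs. Per kb it stood at 62.2 ± 1.61, 1.60-fold below Prdm12 (interval 1.46 to 1.76).

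Drgx (listed as Prrxl1, chromosome 14, 32599407 to 32649246), a paired homeobox gene needed for nociceptive circuits, gave 28.7, 28.5, 37.5 and 40.5 CPM from 425 reads. The second pair stood clearly above the first, and the libraries within a pair were close. Per kb of coding length it stood at 42.8 ± 9.36 CPM per kb, 1.44-fold below Tlx3 (interval 1.28 to 1.63). With summed exon length Drgx lay 4.35-fold below Tlx3 (interval 3.84 to 4.92). Drgx and Pou4f1 did not differ beyond their spread per kb of coding length: the log2 difference, Drgx minus Pou4f1, was 0.04 ± 0.287, positive in 2 of 4 libraries. Runx1 (chromosome 16, 92601466 to 92826149) encodes the Runt factor of non-peptidergic nociceptors. It gave 29.5, 38.0, 38.3 and 42.9 CPM from 464 reads. Replicate 1 was the lowest library, and replicates 2 and 3 were almost equal.

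Of the factors of large neurons, Etv1 was low to middling and Runx3 close to the detection limit. Etv1 (chromosome 12, 38779380 to 38870484), an ETS gene needed for proprioceptor axons to reach motor neurons, gave 19.8, 16.7, 17.6 and 18.1 CPM from 227 reads, all within overlapping pairs. Per kb it stood at 12.6 ± 0.185 CPM per kb. Runx3 (chromosome 4, 135120652 to 135177990), the Runt factor of proprioceptors, gave 2.58, 4.56, 1.53 and 2.13 CPM from 33 reads in all 4 libraries. Replicate 2 was the highest, and both libraries of the first pair lay above both of the second. Per kb of coding length, Runx1 (26.6 ± 3.47 CPM per kb) exceeded Runx3 (2.13 ± 0.968) 12.8-fold (interval 8.98 to 18.8), a log2 difference of 3.19 ± 0.624 in 4 of 4 libraries. With summed exon length that fold was 5.85 (interval 4.11 to 8.60) and the log2 difference 1.42 ± 0.371. The log2 scale adds 1 CPM per kb to each value and so understates differences of low genes.

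Paralogs that do not belong to the set gave a mixed picture. Etv5, an ETS paralog of Etv1 also known from satellite glia in rat, stood at 58.4 ± 4.26 CPM per kb, 4.60-fold above Etv1 (interval 3.99 to 5.33), and Etv4 at 2.15 ± 0.138, 6.09-fold below Etv1 (interval 4.30 to 8.82). With summed exon length in place of coding length, Etv1 lay 1.39-fold above Etv4 (interval 0.986 to 2.02), in 3 of 4 libraries. Etv5 then lay 16.5-fold above Etv1 (interval 14.3 to 19.1). Etv5 also has a pseudogene copy, Gm4798, that holds 51.8% of its windows, so both sides of the fold between Etv5 and Etv1 are uncertain. Runx2, the Runt factor of bone, stood at 3.20 ± 0.231 CPM per kb, 8.26-fold below Runx1. Tlx2 stood at 11.1 ± 1.83 CPM per kb, and Tlx1 was listed at 0 in all 4 libraries. Cbfb, which encodes the partner that Runt proteins need to bind DNA, stood at 60.9 ± 2.98 CPM per kb, 2.28-fold above Runx1 (interval 2.00 to 2.61). Without division by length the sign of that difference turned, to 0.12 on the log2 scale for Runx1 minus Cbfb, since the coding sequence of Cbfb is short.

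**Figure D3:**
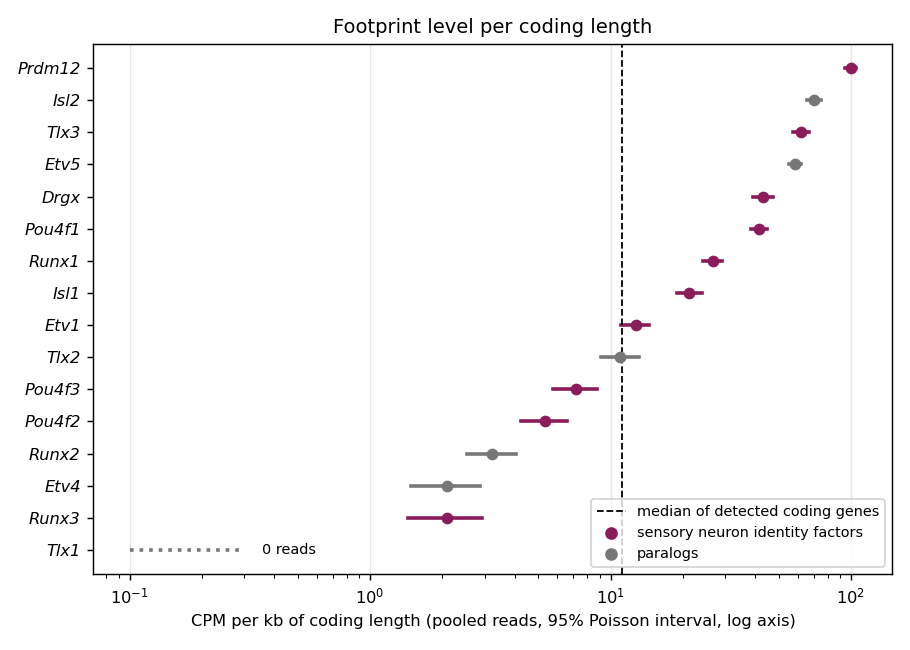
Footprint level per kb of coding length (horizontal axis, log scale) of the 10 factors and 6 paralogs, from the pooled reads of the 4 libraries with 95% Poisson intervals for counting error. Prdm12 is highest and Runx3 the lowest of the factors, Isl2 lies above Isl1, and Tlx1 has 0 reads.

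The order of the factors per kb of coding length was Prdm12, Tlx3, Drgx, Pou4f1, Runx1, Isl1, Etv1, Pou4f3, Pou4f2 and Runx3. Of the 9 neighbours in this order, 7 kept their direction in all 4 libraries and differed by more than the SD over libraries. The exceptions were Drgx with Pou4f1 and Pou4f3 with Pou4f2. Runx1 and Isl1 were the closest of the 7, at a log2 difference of 0.31 ± 0.159 that came down to 0.0055 in replicate 1. Of 16 contrasts fixed among the factors, their paralogs and partners, 15 had the same sign in all 4 libraries. No such contrast can pass a threshold of 0.05, because an exact permutation test that flips signs, two-sided, gives a p of 1 in 8 at the smallest with 4 libraries and of 0.5 with 2 pairs. Adjusted by Benjamini-Hochberg, that smallest exact permutation p came to 0.133 over the 16 contrasts and 0.161 over the 9 neighbours. With the summed exon length in place of the coding length, 3 of the neighbours changed their order: Drgx lay below Pou4f1 (log2 difference -0.43), Runx1 below Isl1 (-0.70) and Etv1 below Pou4f3 (-0.73).

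Between the 2 pairs of libraries, 5 of the 10 factors had values that did not overlap. Both libraries of the second pair lay above both of the first for Drgx, Runx1 and Prdm12, and below them for Runx3 and Pou4f2. Among all detected genes, 24.6% lay above and 23.4% below in this way, so 3 and 2 of 10 factors are close to that background. The ratio of the second to the first pair was 1.37 for Drgx (interval 1.13 to 1.68), 1.24 for Runx1 (1.03 to 1.49) and 1.14 for Prdm12 (1.02 to 1.27). It was 0.550 for Runx3 (0.247 to 1.17) and 0.791 for Pou4f2 (0.498 to 1.25), whose intervals include 1. Pou4f3 had a ratio of 0.825 (0.533 to 1.27), and Isl1, Pou4f1, Tlx3 and Etv1 had ratios of 0.970 to 1.05. When values were scaled to the reads of nuclear protein-coding genes, the pairs of Runx1 overlapped and those of the other 4 did not. The pairs are a property of the libraries, not a condition of the study, and were not tested against each other.

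Receptor, channel, peptide and other genes of the sensory neuron classes that these factors specify were set beside them. Of 18 such genes, 11 lay higher in the second pair and 4 lower without overlap. Among all detected genes these shares were 24.6% and 23.4%, and among genes of at least 10 CPM 28.1% and 24.7%. The class genes had a median of 199 CPM against 28.0 for the factors, so the counts of these sets are not like for like. The median log2 difference of the class genes was 0.17, against 0.04 for the factors and -0.0094 for all detected coding genes. Mrgprd, a receptor gene of non-peptidergic neurons that needs Runx1 in mice, gave 249, 263, 388 and 416 CPM, a ratio of 1.58 (interval 1.49 to 1.69). P2rx3, an ATP-gated channel gene, and Calca, the CGRP gene, had ratios of 1.49 and 1.40. Ret, the GDNF receptor gene, had one of 1.24. Lower in the second pair were Pvalb, a calcium-binding protein gene of proprioceptors (ratio 0.776, interval 0.685 to 0.878), Spp1 (0.895), the neuropeptide gene Gal (0.702) and Mrgprb4 (0.550, interval 0.247 to 1.17). Ntrk3, the NT-3 receptor gene that Runx3 helps to maintain, was among the 11 that lay higher in the second pair. Its ratio was 1.07, with an interval (0.990 to 1.16) that includes 1.

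Some markers of other cells that also make these factors moved with the pairs as well. Blood and immune cells make Runx1 and Runx3. Of 13 markers of such cells 11 were detected. The summed level of the 13 lay between 507 and 512 CPM in the first pair and between 430 and 440 in the second. Of the 11, 6 lay lower in the second pair without overlap and 0 higher, beside 23.4% and 24.6% of all detected genes. The pairs of the highest markers, Csf1r (150 ± 0.885 CPM) and Kit (110 ± 0.872), overlapped. Of the T cell genes, Cd3e and Cd8a had means of 0.0949 CPM each, and Cd4 was detected at 1.97 ± 0.0358. Mast cell genes were present, with Mcpt4 at 45.9 ± 17.0 and Cpa3 at 29.9 ± 8.47 CPM. The summed level of these markers was thus lower in the pair in which Runx1 was higher, and lower in the same pair as Runx3. Sympathetic neurons make Isl1. The sum of 7 sympathetic markers lay at 86.6 to 98.6 CPM in the first pair and 65.1 to 74.3 in the second, and 3 of the 7 were detected. Most of the sum was Th, which a class of sensory neurons also makes and whose pairs overlapped (65.0 ± 2.17 CPM, ratio 0.957). Dbh, the gene of the enzyme that makes noradrenaline, gave 11.5, 7.97, 1.15 and 1.07 CPM (ratio 0.110, interval 0.0426 to 0.241). Slc6a2, the noradrenaline transporter gene, gave 13.8, 16.7, 4.98 and 4.26 CPM (ratio 0.303, interval 0.193 to 0.465). Both were thus lower in both libraries of the second pair, while the pairs of Isl1 overlapped, and Hand2 had a mean of 0.143 CPM. Of 5 dorsal horn markers, relevant to Drgx and Tlx3, 2 were detected, Slc32a1 at 2.77 ± 0.194 and Gad2 at 1.45 ± 1.32 CPM. The part of these cells in the levels of the factors was not tested.

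**Figure D4:**
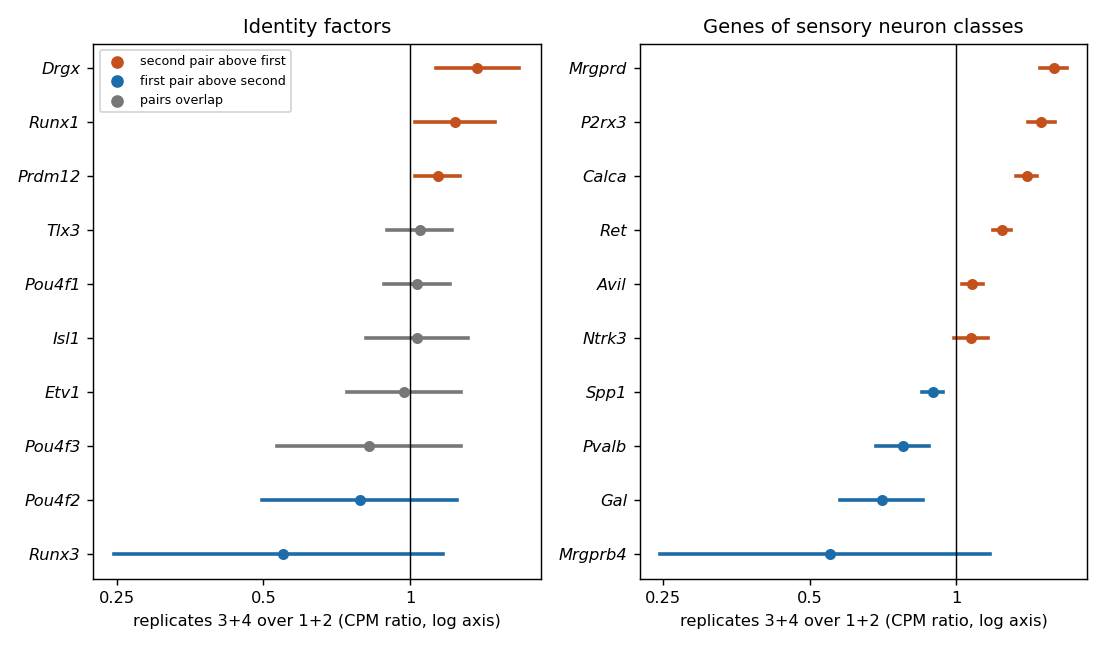
Ratio of the second to the first pair of libraries (CPM, log axis, 95% exact interval for counting error) for the 10 factors on the left and, on the right, the 10 of 18 genes of sensory neuron classes that the text names, coloured by whether the pairs overlap. Drgx, at 1.37, and Mrgprd, at 1.58, have the highest ratios of the respective panels, and Runx3 and Mrgprb4, both at 0.550, the lowest. The 10 class genes shown all have pairs that do not overlap. Ntrk2, Trpa1 and Gfra3, whose pairs overlap, are not shown, so the colours of the panels are not like for like.

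Other factors of the sensory lineage spanned a wide range of levels. Of 18 binding partners and corepressors of these proteins 17 were detected, with a median of 20.5 CPM per kb of coding length, beside 23.9 for the 10 factors. Per kb of summed exon length both medians were lower, 4.34 for the partners and 4.35 for the factors. Ssbp3, which encodes a protein that binds LDB proteins, stood at 72.6 ± 7.59 CPM per kb, and Ldb2, the paralog of Ldb1, at 42.2 ± 1.16. The Groucho corepressor genes Tle1 and Tle4 stood at 24.0 ± 0.638 and 20.5 ± 0.0609 CPM per kb. Lmo2 was the lowest detected member in CPM (4.48 ± 0.183), and Lmo3, with 2 reads in all, was not detected.

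Of 14 further subtype factors all were detected, with a median of 3.84 CPM per kb of coding length. Klf7, a zinc finger factor, stood at 101 ± 16.6 CPM per kb and Maf, of low-threshold mechanoreceptors, at 89.0 ± 9.50, beside 100.4 for Prdm12. Ebf1 and Zeb2 stood at 39.3 ± 0.448 and 35.6 ± 0.899 CPM per kb. Hmx1, a homeobox gene, was the lowest in CPM at 1.24 ± 0.204. Mafa and Shox2, of large mechanoreceptors, stood at 3.65 ± 0.958 and 3.79 ± 0.276 CPM per kb.

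The factors that start sensory neurogenesis in the embryo were low or not detected. Of 19 neural crest and neurogenesis factors 12 were detected, with a median of 9.10 CPM per kb of coding length. Neurod4 and Nhlh1 were listed at 0 in all 4 libraries, and Neurog1, which with Neurog2 starts the sensory lineage, had 1 read. Neurog2 gave 2.87, 4.18, 1.15 and 0.799 CPM from 27 reads, and both libraries of the second pair lay below both of the first. Sox10, of satellite glia and Schwann cells, stood at 119 ± 5.56 CPM per kb, Foxd3 at 22.6 ± 4.85 and Six4 at 8.86 ± 0.818. Sox11 was the lowest detected member in CPM, at 1.55 ± 0.312. The 18 genes of sensory neuron classes, most of which encode receptors, channels and peptides, were all detected and had a median of 88.9 CPM per kb. In CPM they were led by Ret (693 ± 104), Avil, an actin-binding protein gene of sensory neurons (505 to 560 over the libraries), Calca (531 ± 125) and Spp1 (494 ± 38.4), and Mrgprb4 was lowest at 2.65 ± 1.16.

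**Figure D5:**
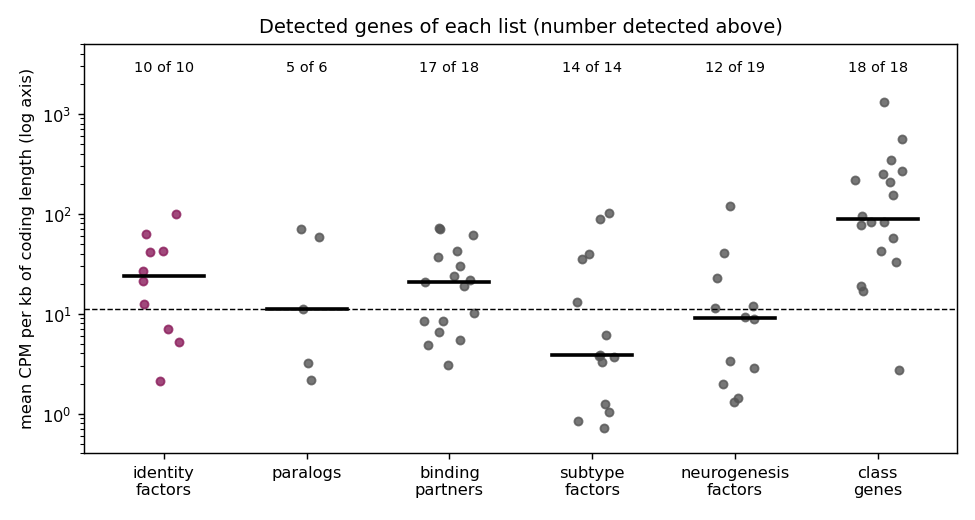
Mean CPM per kb of coding length (vertical axis, log scale) of the detected genes of each list, 1 point per gene, with the list median as a bar and the median of detected coding genes (11.2) dashed. The medians are 23.9 for the 10 identity factors, 20.5 for the partners, 3.84 for the other subtype factors and 88.9 for the class genes.

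Genes whose pattern over the 4 libraries was most like that of the leading factors were also looked up. Likeness was the Euclidean distance between log2(CPM + 1) values centred on each gene's mean, over 8988 other genes of at least 10 CPM. The nearest to Prdm12 were Mink1 (distance 0.013), Irf3 (0.013) and Dnajc16 (0.024). The nearest to Tlx3 were Adk, Pld3 and Slc4a4, and to Pou4f1 Gm7271, Ttc17 and Eif5b. With 4 libraries in 2 pairs many genes are this close: 166, 535 and 488 genes lay within 0.1 of Prdm12, Tlx3 and Pou4f1.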

How the data were processed

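The authors' deposited table gives 48431 genes in 4 libraries. Footprints of 28 to 34 nt were selected after rRNA depletion, per the labels' protocols. TopHat2 2.1.1, Bowtie2 2.2.9 and Cufflinks 2.2.1 on GRCm38, with FastQC 0.11.5, are named in the submitters' processing notes. Annotation, counting rule, strand setting and the handling of reads with several matches were not given in the sources used here. Columns are headed TPM in the deposited table, but their values were used as CPM, not divided by length: each column sums to 1000000, and 96.5% to 97.0% of values above 0 are whole multiples of 1 step per library (tolerance 0.02 steps). That share was 95.2% to 95.7% among the 25% of genes with the shortest and 97.5% to 98.1% among the 25% with the longest exons. The step gave the library sizes, and reads were rounded from it. No count test was run, since there is 1 group and the lowest values are not whole.

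Of the gene IDs, 48052 matched GENCODE M21, which gave biotype, coordinates and the longest coding length. Whether reads lay within coding sequence could not be seen. Values of equal symbols were added up. Pairs of libraries were compared by chi-square on genes with 20 or more reads in their sum. Contrasts were differences of log2(CPM per kb + 1) within libraries, tested by exact two-sided sign flips and adjusted by Benjamini-Hochberg. Intervals are 95% Poisson or Clopper-Pearson. Python 3.11.15 was used with scipy 1.17.1, numpy 2.4.6, pandas 2.3.3 and matplotlib 3.10.9. On simulated libraries of 48431 genes with counting noise only, 100% of 200 genes of at least 10 CPM, raised 2-fold in the second pair, were separated. Smaller changes, and changes of lower genes, were not simulated.

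The factors and gene lists were chosen with earlier results of these data known. Genes named are the 10 factors, 6 paralogs, the genes of the contrasts, the 4 highest and the lowest detected member of the other lists in CPM and those at 0, and the 3 nearest patterns of the 3 highest factors. Of the markers of other cells only those that bear on a result are named. Lmo3, Mafa, Shox2, Neurog1, Neurog2, Mrgprd, P2rx3, Pvalb, Gal and Ntrk3 were chosen after their values were seen. Some genes that this rule names are not reported here. Alternatives dropped 1 replicate at a time, or changed the pseudocount (0.1, 5), the length, the scaling or the minimum mean (0.1, 10, none), or counted 4 samples.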

Additional observations from a re-analysis of the deposited data

How the results depend on the processing

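No paired analysis was possible because the libraries form 1 group. Leaving out 1 replicate at a time kept all 10 factors detected (10 to 10), 7 to 8 of 9 neighbours and 15 to 16 of 16 contrasts of 1 sign, and the median level of the factors at 27.5 to 28.5 CPM (28.0 with all); only without replicate 3 did Pou4f2 and Pou4f3 differ in 1 direction in every library left. Scaled to reads of nuclear protein-coding genes, that median was 35.9 CPM, and Runx1 no longer stood apart between the pairs (2 factors higher, 2 lower). With a minimum mean of 10 CPM the pairs were apart for 3 factors instead of 5, since 7 factors passed it; the reads of Pou4f2, Pou4f3 and Runx3 limit what can be said of them. Reversed signs came from length: with summed exon length, Drgx minus Pou4f1 was -0.43, Runx1 minus Isl1 -0.70 (Isl1 minus Runx1 0.70) and Etv1 minus Pou4f3 -0.73, and with no length correction Drgx minus Pou4f1 was -0.63 and Runx1 minus Cbfb 0.12. With summed exon length 11 of the 16 contrasts moved by more than 1.5 times, among them Runx1 minus Runx3 (1.42 instead of 3.19 on the log2 scale), Runx1 minus Runx2 (1.31 instead of 2.71), Etv1 minus Runx3 (0.63 instead of 2.17) and Etv1 minus Etv4 (0.24 instead of 2.14, no longer of 1 sign), while Pou4f2 minus Pou4f3 (-0.38) came to have 1 sign. Others of the 11 grew: Isl1 minus Isl2 was -2.42 instead of -1.68 and Drgx minus Tlx3 -2.01 instead of -0.54. Drgx minus Prdm12 (-2.33 instead of -1.22) and Etv1 minus Etv5 (-3.32 instead of -2.13) grew as well. List medians per kb moved too: with summed exon length they were 4.35 for the factors, 5.99 for the paralogs, 4.34 for the partners, 1.29 for the subtype factors, 2.59 for the neurogenesis factors and 52.3 for the class genes, beside 3.52 for all detected coding genes. With a minimum mean of 10 CPM the median was 37.4 for the subtype factors, 64.3 for the paralogs and 17.3 for the neurogenesis factors, and with a minimum of 0.1 CPM or none that of the neurogenesis factors was 3.36 or 1.97. With none that of the paralogs was 7.17. Without division by length it was 199 CPM for the class genes and 34.1 for the partners. Pseudocounts of 0.1 and 5 turned no sign of a contrast or neighbour difference.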
